A study of Homo sapiens with 6 samples.

Results

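The CELF, MBNL, RBFOX, NOVA and QKI proteins bind short motifs in pre-mRNA and set which exons are kept in a tissue. The genes described here are 10 members of these 5 families: CELF1, CELF2, CELF4, MBNL1, MBNL2, MBNL3, RBFOX2, NOVA1, NOVA2 and QKI. They were chosen by gene symbol from the 16779 genes listed in the deposited tables, and all 10 were listed. The choice was made with the group differences of these libraries known, so the members' differences are given as a description with no test.

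Total RNA of A549, an established line of human lung adenocarcinoma cells, was made into mRNA libraries and sequenced. There were 3 libraries labelled control, with a wild-type genotype, and 3 libraries labelled RN7SK-KO, with RN7SK knocked out. No treatment, dose or time is given in the labels, and whether the knockout is a clone or a pool, and whether the libraries of a group came from separate cultures, are not stated there either. The p-values below therefore set the group difference only against the spread between these libraries, which may be technical. RN7SK is the 7SK small nuclear RNA, a non-coding RNA whose particle keeps P-TEFb, a kinase of transcription elongation, inactive. The comparison asks how gene expression differs between cells with and without it.

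Each library held between 16018260 and 19357144 counts over the listed genes. RN7SK was not among the listed genes, so the deletion itself was not checked. A549 is known to lack the neighbouring cell-cycle inhibitor genes CDKN2A and CDKN2B. CDKN2A had 963, 1005 and 923 counts in the libraries labelled control and 0, 1 and 2 in the libraries labelled knockout. CDKN2B had 216, 241 and 238 counts against 0, 1 and 0. The counts of both genes in the libraries labelled control go against the cell line on the label, and the groups are therefore called by their labels throughout. A difference in line and an effect of the RN7SK deletion cannot be told apart in these libraries. Of 12929 genes tested with edgeR's quasi-likelihood test, 10992 (85.0%) passed a Benjamini-Hochberg adjusted p of 0.05, 5428 (42.0%) higher and 5564 (43.0%) lower in the libraries labelled knockout.

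The families work against and beside each other. MBNL proteins promote adult exon choices in muscle, heart and brain, and CELF proteins favour the fetal form of several of the same exons. In myotonic dystrophy, expanded CUG or CCUG repeats trap MBNL proteins while CELF1 is stabilised. RBFOX proteins bind GCAUG and NOVA proteins bind clusters of YCAY, both best known from neurons, where the position of the site relative to the exon sets whether it is included or skipped. QKI binds ACUAA-type sites and acts in myelination, vascular cells and circular RNA formation. RBFOX2, QKI, CELF1, MBNL1 and MBNL2 are also made in many epithelial cells. A count per gene holds no exon usage, so splicing itself was not measured here.

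**Figure D1:**
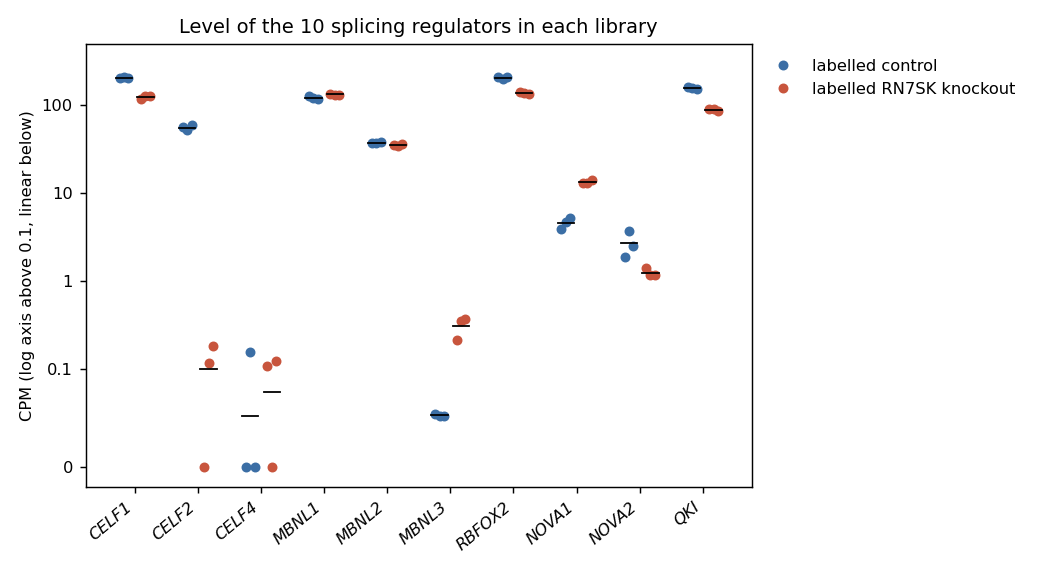
CPM (counts scaled to library size) of the 10 members in each library, on an axis that is linear near 0 and logarithmic above, with points for the 3 libraries labelled control and the 3 labelled knockout and black bars for the group means. CELF2 lies near 56.0 in the libraries labelled control and at or near 0 in those labelled knockout, NOVA1 lies higher in those labelled knockout, and CELF4 and MBNL3 stay under 1 in every library.

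CELF2 showed the widest gap. It encodes a CELF protein that shuttles between nucleus and cytoplasm and is best known from T cells, heart and brain. The gene lies at chr10:10462550-11336675 on the plus strand (GRCh38.p14). It had 1040, 1004 and 1137 counts in the libraries labelled control and 0, 2 and 3 in those labelled knockout, which is 56.2, 52.5 and 59.4 CPM, counts scaled to library size, against 0, 0.119 and 0.184 CPM. Every library labelled control was far above every library labelled knockout, and the ranges did not overlap. Summed over the group and scaled to depth, the 3181 counts against 5 are a ratio of 578, with an exact 95% counting interval of 248 to 1783. The fitted log2 difference of counts, labelled knockout minus labelled control, was -9.08. With so few counts on 1 side it moved to -8.47 without the first library labelled knockout and to -9.79 without the third. The edgeR fit gave an SE of 0.19, but the tool DESeq2 gave a difference of -9.18 with an SE of 0.65. The smaller SE is therefore not taken as its precision. In bulk samples, fewer cells with a transcript and less of it per cell cannot be told apart.

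The RefSeq table (GRCh38.p14) lists 10 start sites for CELF2. The 250 bases before them hold between 4 and 44 CG dinucleotides, against a median of 11 over 35116 such windows of all genes, and 5 of the 10 hold GGGCGG. A pair of them, chosen after the values were seen, is printed to show how unlike in composition the listed starts of this gene are. Both lie inside the CELF2 span on the plus strand and overlap no exon of GENCODE release 29. The first is chr10:10796589-10796838, the second chr10:11017622-11017871. Each is written 5′ to 3′ in lower case with CG dinucleotides in capitals.
CELF2 first window: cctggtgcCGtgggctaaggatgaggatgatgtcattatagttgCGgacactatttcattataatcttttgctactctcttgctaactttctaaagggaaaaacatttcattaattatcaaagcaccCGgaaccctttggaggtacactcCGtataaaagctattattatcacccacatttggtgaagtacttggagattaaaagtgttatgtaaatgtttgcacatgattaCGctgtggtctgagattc
CELF2 second window: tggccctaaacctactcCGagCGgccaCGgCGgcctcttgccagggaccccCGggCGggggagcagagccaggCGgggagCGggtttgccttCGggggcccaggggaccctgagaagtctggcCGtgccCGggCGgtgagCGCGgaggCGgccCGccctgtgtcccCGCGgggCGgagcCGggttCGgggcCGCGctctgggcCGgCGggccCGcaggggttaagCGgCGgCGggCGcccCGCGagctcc
The first window is 38.4% G or C and holds 5 CG dinucleotides, 1 match to TATAAA and none to GGGCGG. The second is 79.2% G or C and holds 32 CG dinucleotides and 4 matches to GGGCGG, and it has none to TATAAA. Both motifs were searched on both strands, and each GGGCGG also holds a CG. Over all 35116 windows, 42.6% held GGGCGG and 10.7% held TATAAA. Such a match is a description of the letters, not a site in use, and gene counts do not say which start was read.

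The genes beside CELF2 did not share its direction. Of the 20 tested genes nearest to it on chromosome 10, 10 on each side, 19 were higher and 1 was lower in the libraries labelled knockout, with a median log2 difference of 0.68 against 0.38 for the 515 tested genes of the chromosome. The lowest of the 20 was UPF2, a nonsense-mediated decay factor, at -0.06, and the highest was PRKCQ, a kinase of T-cell signalling, at 2.62.

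CELF1, a widely expressed CELF protein and a factor in mRNA decay as well as splicing, was lower by counts. The gene lies at chr11:47465937-47565539 on the minus strand. It had 206, 209.6 and 204 CPM in the libraries labelled control and 119, 127 and 127 CPM in those labelled knockout, or 207 ± 2.89 against 124 ± 4.49 CPM (SD, n = 3 each). The groups did not overlap, and the log2 difference of counts was -0.73 ± 0.045 (SE). On the deposited FPKM scale, which divides fragments by gene length and library total, the same libraries gave 20, 20.2 and 19.6 against 19, 20.2 and 20.4. Those ranges overlapped and both means were 19.9 FPKM, so the gap by counts was not seen by FPKM. Of the CELF1 exon bases in GENCODE release 29, 2.24% also lie in NDUFS3 or PTPMT1 on the other strand.

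CELF4, a CELF protein of brain, was at the limit of detection in both groups. The gene lies at chr18:37242844-37565798 on the minus strand. It had 0, 3 and 0 counts in the libraries labelled control and 2, 0 and 2 in those labelled knockout, too few for the test. No difference was detectable at this depth. Of its 20 tested neighbours 15 were lower in the libraries labelled knockout, with a median log2 difference of -0.91, against -0.7 over chromosome 18.

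Because CELF2 was nearly absent from the libraries labelled knockout, the shares of CELF1, CELF2 and CELF4 by level per length differed. CELF1 made up 81.9% ± 1.07 (SD, n = 3) of the summed FPKM of CELF1, CELF2 and CELF4 in the libraries labelled control and 99.9% ± 0.066 in those labelled knockout. CELF2 made up 18.0% ± 1.12 and 0.0424% ± 0.0392. With the control group's gene lengths used for both groups, the knockout shares were 99.8% for CELF1 and 0.0646% for CELF2. Other CELF genes are not in these sums. In the libraries labelled knockout CELF6 was at 0.75 FPKM and CELF5 at 0.184, against 0.00865 for CELF2. In those labelled control CELF6 was at 0.0339, CELF5 at 0.0239 and CELF2 at 4.39.

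The remaining CELF genes were looked at as a fixed set of paralogs together with RBFOX1 and RBFOX3. CELF6, a CELF protein best known from the nervous system, went from 4, 3 and 0 counts to 51, 32 and 56, a fitted log2 difference of 4.37 ± 0.45 (SE). It passed the filter on low counts only through the libraries labelled knockout, where it is high, so no test result is given as support. Every library labelled knockout was above every library labelled control, though the difference was 4.97 without the first library labelled control. CELF5 had 6, 2 and 3 counts against 7, 15 and 19 and CELF3 a single count in all 6 libraries, and both were too low to test. In CPM, CELF6 reached 2.7 ± 0.767 (SD, n = 3) in the libraries labelled knockout.

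**Figure D2:**
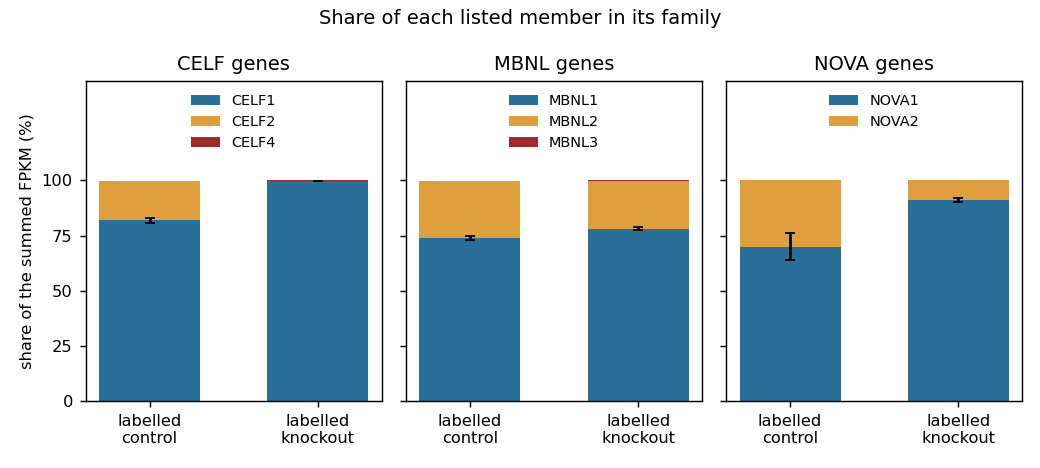
Share of the summed FPKM of the members of each family (percent) taken by each member, as group means over 3 libraries, with SD bars on the first member of each family. The CELF sum holds CELF1, CELF2 and CELF4 only, without CELF3, CELF5 and CELF6. CELF1 goes from 81.9% to 99.9% of that sum, MBNL1 from 74.0% to 78.1% of its own, and NOVA1 from 70.1% to 91.2%.

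By counts, MBNL1 and MBNL2 had the smallest differences of the 8 tested members, while by FPKM and with gene lengths as an offset CELF1 had a smaller one than MBNL1 or MBNL2. MBNL1, the most abundant muscleblind protein in most tissues, lies at chr3:152243632-152465780 on the plus strand. It had 127, 121 and 118 CPM in the libraries labelled control and 136, 133 and 132 CPM in those labelled knockout. The groups were close but did not overlap, at 122 ± 4.54 against 133 ± 2.5 CPM (SD, n = 3 each), a log2 difference of counts of 0.13 ± 0.047 (SE), or 0.1 to 0.15 with any 1 library left out. By FPKM it had 15.8, 15.0 and 14.6 against 18.2, 17.7 and 17.8, again higher in every library labelled knockout. Of the exon bases of MBNL1 in GENCODE release 29, 15.6% also lie in antisense genes, mostly MBNL1-AS1, and the strand setting of the authors' counting is not stated in the labels, so reads of the pair cannot be told apart.

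MBNL2, the muscleblind protein whose loss mainly affects the brain, lies at chr13:97141834-97394120 on the plus strand. It had 37.0, 37.8 and 38 CPM in the libraries labelled control and 35.5, 34.6 and 36.8 CPM in those labelled knockout. The ranges did not overlap but came within 1 CPM of each other. By FPKM it had 5.24, 5.32 and 5.34 against 4.96, 4.84 and 5.2. The log2 difference of counts was -0.078 ± 0.063 (SE), and it was 0.0087, in the other direction, when libraries were scaled by the upper quartile and -0.17 ± 0.063 (SE) with each group's gene lengths as an offset. No direction is therefore given for MBNL2.

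MBNL3, the muscleblind protein of placenta and of immature muscle cells, lies at chrX:132369320-132490035 on the minus strand. It had 1 count in each library labelled control and 4, 6 and 6 in those labelled knockout. Scaled to depth, the ratio of the summed counts was 5.87 with an exact 95% counting interval of 1.68 to 31.4. The level reached at most 0.369 CPM, and the gene was too low to test. MBNL1 and MBNL2 thus made up nearly all of the family by FPKM, with MBNL1 at 74.0% ± 0.963 (SD, n = 3) in the libraries labelled control and 78.1% ± 0.714 in those labelled knockout.

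RBFOX2, the RBFOX protein of epithelial and stem cells, was lower in the libraries labelled knockout. The gene lies at chr22:35738736-36028824 on the minus strand. It had 210.3, 200.3 and 208 CPM in the libraries labelled control and 143, 139 and 136 CPM in those labelled knockout, or 206 ± 5.25 against 139 ± 3.9 CPM (SD, n = 3 each). The groups lay well apart. The log2 difference of counts was -0.56 ± 0.045 (SE). By FPKM the values were 16.8, 15.9 and 16.5 against 14.8, 14.3 and 14.1, still apart but closer. Its 20 nearest tested genes had a median log2 difference of 0.48, with 14 higher and 6 lower.

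RBFOX3, the paralog known as the neuronal nuclear antigen NeuN, moved the other way. It went from 13, 15 and 7 counts in the libraries labelled control to 186, 166 and 148 in those labelled knockout, a fitted log2 difference of 3.96 ± 0.21 (SE). Like CELF6, it passed the filter on low counts only through the libraries labelled knockout, so no test result is given as support. In CPM this was 0.618 ± 0.222 against 9.67 ± 0.497 (SD, n = 3 each), so all libraries labelled knockout were above all labelled control. RBFOX1, the muscle and brain paralog, was not among the listed genes, so it has no value here.

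NOVA1 and NOVA2, the neuronal NOVA pair, differed in opposite directions. NOVA1 lies at chr14:26443090-26598033 on the minus strand. It had 72, 90 and 101 counts in the libraries labelled control and 248, 221 and 232 in those labelled knockout, which is 3.89, 4.71 and 5.28 CPM against 13.3, 13.2 and 14.3 CPM. All libraries labelled knockout were above all labelled control. The log2 difference of counts was 1.55 ± 0.13 (SE), a 2.93-fold higher mean, and the FPKM went from 0.722 ± 0.107 to 1.54 ± 0.0748 (SD, n = 3 each).

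NOVA2, which takes the larger part in the cortex and in vessels, lies at chr19:45933734-45973865 on the minus strand. It had 35, 72 and 48 counts in the libraries labelled control and 26, 20 and 19 in those labelled knockout, or 1.89, 3.77 and 2.51 CPM against 1.4, 1.19 and 1.17 CPM. The groups did not overlap, but the libraries labelled control spread widely, and the second of them was highest. The log2 difference of counts was -1.11 ± 0.26 (SE), and -0.81 without that library. By FPKM, NOVA1 made up 70.1% ± 6.32 (SD, n = 3) of the pair in the libraries labelled control and 91.2% ± 1 in those labelled knockout, and NOVA2 the rest. With the control group's gene lengths the knockout share of NOVA1 was 93.6%.

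RefSeq lists 3 starts for NOVA1 and 1 for NOVA2. Printed, after the values were seen and because the genes differed in opposite directions, are the window of NOVA2 and the NOVA1 window with the most CG dinucleotides. The other NOVA1 windows, at chr14:26596098-26596347 and chr14:26553431-26553680, hold 2 and 1 CG dinucleotides and are 35.6% and 44.8% G or C, and the first of them holds TATAAA. Each printed window ends at the base before the annotated gene, so it lies outside it, on the minus strand of GRCh38.p14. The printed windows are chr14:26598034-26598283 for NOVA1 and chr19:45973866-45974115 for NOVA2. They overlap no exon of GENCODE release 29 and are taken from the RefSeq table, 5′ to 3′, again with CG dinucleotides in capitals.
NOVA1: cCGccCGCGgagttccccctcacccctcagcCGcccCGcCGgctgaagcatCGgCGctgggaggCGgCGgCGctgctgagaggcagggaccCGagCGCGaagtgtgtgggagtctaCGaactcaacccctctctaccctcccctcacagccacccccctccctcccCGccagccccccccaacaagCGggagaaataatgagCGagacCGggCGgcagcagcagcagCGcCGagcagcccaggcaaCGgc
NOVA2: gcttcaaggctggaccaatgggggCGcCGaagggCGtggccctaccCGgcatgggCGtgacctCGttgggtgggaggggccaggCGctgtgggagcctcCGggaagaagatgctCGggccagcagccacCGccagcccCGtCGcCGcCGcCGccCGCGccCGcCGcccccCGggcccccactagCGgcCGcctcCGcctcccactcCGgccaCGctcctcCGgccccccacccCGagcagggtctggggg
The NOVA1 window is 71.6% G or C with 23 CG dinucleotides and 3 matches to GGGCGG. The NOVA2 window is 78.0% G or C with 27 CG dinucleotides and 2 such matches. Neither printed window holds TATAAA. Of all windows, 76.3% had as many CG dinucleotides as that of NOVA1 or fewer, and 84.1% as many as that of NOVA2 or fewer, so both held more than most. Which of the NOVA1 starts was read is not known from gene counts.

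QKI, the STAR-family protein of myelinating glia and vascular cells, changed direction with the scale. The gene lies at chr6:163414718-163578592 on the plus strand. It had 164, 159.6 and 152 CPM in the libraries labelled control and 90.2, 90.8 and 86.7 CPM in those labelled knockout, a log2 difference of counts of -0.83 ± 0.048 (SE). By counts every library labelled knockout was below every library labelled control. By FPKM the same libraries read 4.16, 4.03 and 3.83 against 6.74, 6.78 and 6.54, with every library labelled knockout above. On log2(FPKM + 0.1) the difference was 0.72, so no direction is given for QKI.

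The scales part at the gene lengths behind the FPKM. A length was recovered from each count and FPKM, and came out whole within 0.02 bases for nearly all genes. For QKI it was 38497 bases in the libraries labelled control and 13249 in those labelled knockout, a ratio of 2.91. CELF1 had 10096 against 6209 bases, a ratio of 1.63, and RBFOX2 had 12228 against 9620, a ratio of 1.27. NOVA1 was the clear exception, with 6239 against 8754 bases, so it was the longer in the libraries labelled knockout, by 1.4 times.

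In all, 8 of the 10 members had the longer model in the libraries labelled control and 2, NOVA1 and MBNL2, in those labelled knockout. NOVA2 alone agreed within 1%, at 8436 and 8381 bases. Over 14582 genes with a length in both groups, 71.2% were longer in the libraries labelled control, the median ratio was 1.01, 32.3% agreed within 1%, and 0.816% were at least 2.5 times longer in the libraries labelled control, as QKI was. No length of a member matched its exon union in GENCODE release 29, which is 17368 bases for QKI and 10452 for CELF1. The FPKM of the 2 groups thus rest on unlike gene lengths. Whether the counts rest on unlike gene models too was not tested.

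**Figure D3:**
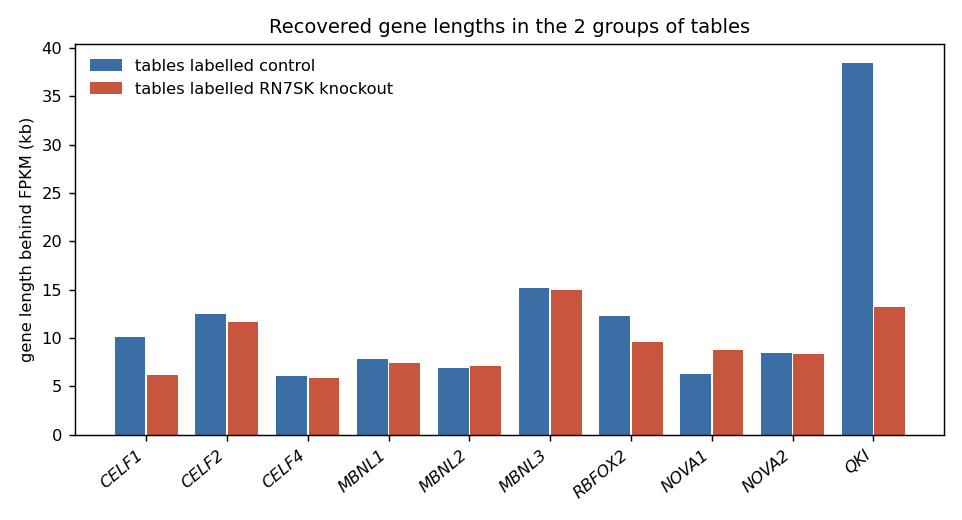
Gene length in kilobases behind the deposited FPKM of each member, as bars for the libraries labelled control and labelled knockout. QKI is 38497 bases against 13249, CELF1 10096 against 6209, and NOVA1 is longer in the libraries labelled knockout.

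With each group's lengths as an offset in the same count fit, the 8 tested members differed in how far they moved. CELF2 went from -9.08 to -9.04, NOVA1 from 1.55 to 1.01, NOVA2 from -1.11 to -1.16 and MBNL1 from 0.13 to 0.16. RBFOX2 went from -0.56 to -0.28 ± 0.045 (SE). All of these kept their direction and stayed away from 0, though NOVA1 and RBFOX2 came closer to it. CELF1 went from -0.73 to -0.087 ± 0.045 (SE), and MBNL2 went from -0.078 to -0.17, farther from 0. QKI went from -0.83 to 0.65, in the other direction. Of all tested genes with both lengths, 6.94% changed direction in this way. With this offset 85.2% of genes passed the edgeR threshold. Which scale is nearer to the RNA level was not tested.

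**Figure D4:**
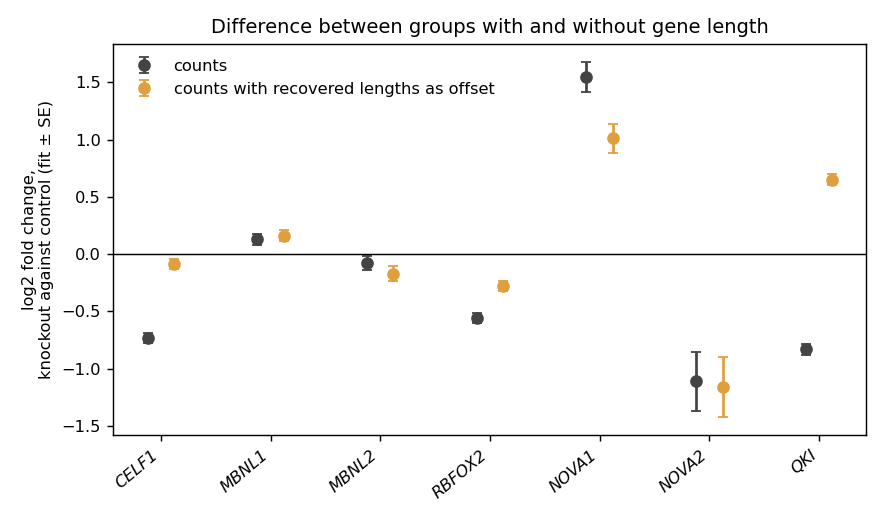
Log2 difference (labelled knockout minus labelled control) with SE bars for 7 tested members, from counts and from counts with each group's gene length as an offset. CELF2 is left off the axis at -9.08 and -9.04. QKI crosses 0 from -0.83 to 0.65, CELF1 comes to -0.087, and NOVA1 and NOVA2 stay on their sides.

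Of the 10 members 8 passed the filter on low counts, and CELF4 and MBNL3 did not. The CPM ranges of the groups did not overlap for 9 members, where 74.6% of the 16028 genes with a count did not. The FPKM ranges did not overlap for 8, against 75.1%. The members were chosen with this contrast known, so nothing is read from these counts.

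Ordered by FPKM in the libraries labelled control, CELF1 came first at 19.9, then RBFOX2 at 16.4, MBNL1 at 15.1, MBNL2 at 5.3, CELF2 at 4.39, QKI at 4.01, NOVA1 at 0.722 and NOVA2 at 0.314, with CELF4 and MBNL3 at 0.00835 and 0.0034. CELF2 and QKI, and CELF4 and MBNL3, had ranges that overlapped, and the other neighbours in the order did not. In the libraries labelled knockout CELF1 at 19.9 was followed by MBNL1 at 17.9, RBFOX2 at 14.4, QKI at 6.69, MBNL2 at 5, NOVA1 at 1.54 and NOVA2 at 0.148 FPKM. MBNL3, CELF4 and CELF2 were last, each overlapping the next. So 8 of the 10 members changed place between the groups. With the control lengths for both groups 8 changed place too, but the order was another: MBNL1 came first at 17.0 CPM per kilobase, CELF1 was second at 12.3, and QKI at 2.32 overlapped NOVA1 at 2.18.

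The members' neighbours on the chromosome gave no common direction. Around NOVA1 the 20 nearest tested genes had a median log2 difference of 0.02 and around NOVA2 0.18, so neither gene's difference was close to that of its surroundings. Around MBNL1 the median was 0.29, with 14 higher and 6 lower. Around CELF1 it was -0.29, with 8 higher and 12 lower. The medians around MBNL2 at 0.01, MBNL3 at 0.02 and QKI at -0.17 took the other sign with fewer or, for MBNL3, also with more genes a side.

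Beside the members, 40 other regulators of tissue-type splicing were taken as a list, the paralogs above included. Of 39 listed, 30 were tested, 10 rose, 14 fell and 6 did not pass the edgeR test, so 24 of 30 passed where 85.0% of all tested genes did (42.0% higher, 43.0% lower). Rose and fell are used for genes past the edgeR threshold. Of those that rose, CELF6, RBFOX3, MSI1 and A1CF passed the filter on low counts only through the libraries labelled knockout. RBM11, which fell, passed it only through those labelled control. These calls are not read as support. With at least 20 counts in every library of a group, 22 of 28 passed, 8 higher and 14 lower, where 10577 of all 12343 genes did. A gene can meet this filter through 1 group alone too, as CELF6 and RBFOX3 do. This count is therefore not read as support either. The median log2 difference was -0.02, against -0.01 over all tested genes, and on log2(FPKM + 0.1) 14 rose and 13 fell. RBM47, an epithelial RNA-binding protein, rose from 21.9 ± 1.34 to 157 ± 5.78 CPM (SD, n = 3 each), a log2 difference of 2.85 ± 0.059 (SE) with an edgeR adjusted p of 5.68e-30. RBM20, the regulator of titin splicing in heart, rose from 9.61 to 61.2 CPM, a log2 difference of 2.67, and RBM24, another muscle factor, rose from 8.39 to 24.9, a difference of 1.56. PCBP4 fell from 43.6 to 11.2 CPM, a difference of -1.96, and KHDRBS1, the signal-linked RNA-binding protein Sam68, fell from 298 to 170, a difference of -0.81. Of the genes that rose, MSI1 and A1CF had 0 counts in the libraries labelled control and 38 and 39 in those labelled knockout, and RBM11, which fell, had 242 against 3, so these 3 are given as counts, with no fold, and the median is also -0.02 with them at a floor of 3 counts per group. TIA1 fell by counts, at -0.53, and was at 0.5 with the length offset.

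Among 18 partners and kinases of the members, all tested, 6 rose and 9 fell, with a median of -0.1, so 15 of 18 passed, beside 85.0% of all tested genes. The split was 9 and 8 with the length offset and 10 and 8 on log2(FPKM + 0.1). SRC, a tyrosine kinase of the family that phosphorylates QKI, rose from 105 ± 3.26 to 504 ± 11.2 CPM (SD, n = 3 each), a log2 difference of 2.26 ± 0.045 (SE) with an edgeR adjusted p of 1.25e-30. PRKCA, the kinase that phosphorylates CELF1 in myotonic dystrophy, rose from 73.6 to 194 CPM, a difference of 1.4. DDX6, an RNA helicase of mRNA decay, fell from 202 to 107 CPM, a difference of -0.92. HNRNPH1, an RNA-binding protein found on the repeat RNA of myotonic dystrophy, fell by counts at -0.36 and was at 0.48 with the length offset.

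The gene totals of known splicing or binding targets were counted as levels only. Of 58 genes 57 were listed and 42 tested, 15 rose, 23 fell and 4 did not pass the edgeR test, with a median of -0.18. The 38 of 42 that passed, and the counts of each target list below, stand beside 85.0% of all tested genes (42.0% higher, 43.0% lower). Of 16 tested MBNL and CELF targets 6 rose and 7 fell. Of these DMD, the dystrophin gene, went from 1150, 971 and 1097 counts to 4, 1 and 0, a depth-scaled ratio of 585 with an exact 95% counting interval of 251 to 1804. Its fitted log2 difference was -9.09, and -10.57 without the first library labelled knockout, so it is given with no SE. DMD passed the filter only through the libraries labelled control, where it is high. CAPZB, an actin-capping subunit, fell from 302 to 135 CPM, a difference of -1.17. CEBPB, whose mRNA CELF1 binds, rose from 167 to 278 CPM, a difference of 0.74.

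Of 13 tested RBFOX targets 6 rose and 7 fell. MYH10, a non-muscle myosin with an RBFOX-controlled neuronal exon, fell from 181 ± 5.35 to 53.3 ± 1.14 CPM (SD, n = 3 each), a log2 difference of -1.76 ± 0.05 (SE) with an edgeR adjusted p of 4.36e-26. ENAH, an actin regulator with an epithelial exon, fell from 265 to 146 CPM and EPB41, the band 4.1 protein, rose from 32.6 to 72.8. Of 7 tested QKI targets 2 rose and 5 fell. MACF1, a cytoskeletal linker, fell from 1137 ± 111 to 325 ± 8.89 CPM, a difference of -1.81, and -1.15 with the length offset, its model being 28974 bases in the libraries labelled control and 17689 in those labelled knockout. HDAC7 fell from 108 to 61.0 CPM and MBP, the myelin basic protein gene, from 101 to 65.7.

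Of 6 tested NOVA targets 1 rose, 4 fell and 1 did not pass. TERT, the telomerase gene whose splicing NOVA1 is known to affect, fell from 394, 453 and 485 counts to 30, 36 and 39, a log2 difference of -3.52 ± 0.14 (SE) with an edgeR adjusted p of 3.05e-22. NOVA1 itself was higher in the same libraries. AGRN, the agrin gene of the neuromuscular junction, fell from 642 to 312 CPM, a difference of -1.04, and APLP2, a relative of the amyloid precursor, from 615 to 404, a difference of -0.6.

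**Figure D5:**
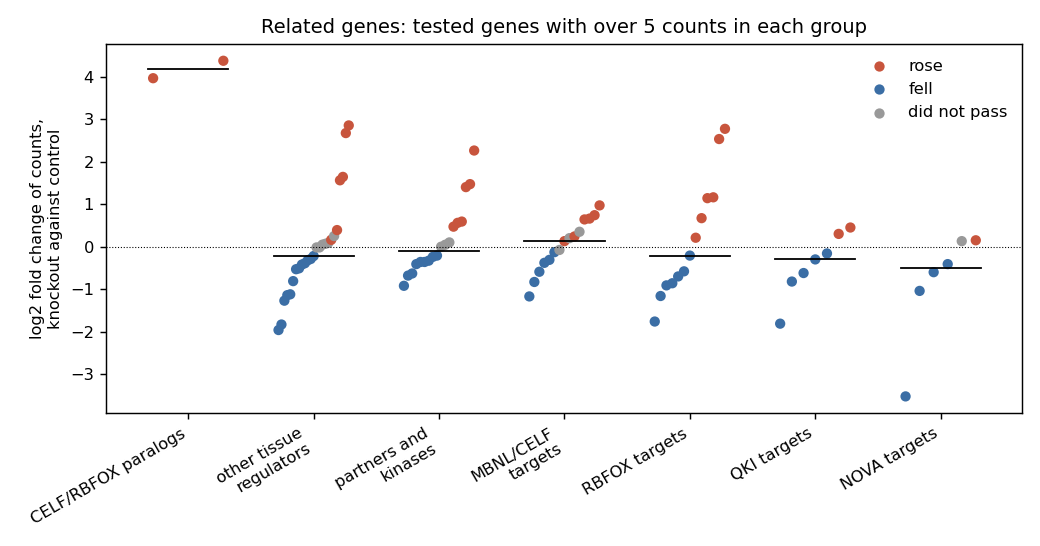
Log2 difference of counts (labelled knockout minus labelled control) for the tested genes of each list with over 5 counts in each group, coloured by whether they rose, fell or did not pass the edgeR test, with a line at the list's median. RBM11, MSI1, A1CF and DMD are left out for their low counts, and the paralogs are drawn apart from the other regulators. The drawn median of the other regulators is therefore -0.22 and differs from that in the text. All 18 partners and kinases are drawn, with a median of -0.11, which differs from the text only by rounding. The text gives 1 median for all targets together. The drawn medians are 0.13 for the MBNL and CELF targets and -0.21, -0.3 and -0.5 for the RBFOX, QKI and NOVA targets.

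Markers of the tissues that these families are known from also differed between the groups, and their part in the members' differences was not tested. Of 14 neuronal markers 12 were listed, and they summed to between 382 and 422 CPM in the libraries labelled control and to between 473 and 480.2 in those labelled knockout. Among them SYT1 went from 9.34 to 81.1 CPM, NEFL from 1.39 to 48.7 and INA from 6.09 to 46.1, while SYP went from 26.1 to 5.15 and TUBB3 from 351 to 266. RBFOX3 is also in that list. Of 12 muscle markers 8 were listed and summed to between 1.57 and 1.94 CPM against 2.87 to 3.06, with DES, MYH6 and TNNI1 at 0 in all libraries, beside the values of MBNL1, CELF1 and DMD. Of 8 glial markers 6 were listed and summed to 93.2 to 107 against 63.2 to 67.8 CPM, nearly all of it MBP, beside the values of QKI.

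Endothelial markers, 9 of 10 listed, summed to 162 to 175 CPM in the libraries labelled control and 4.19 to 4.92 in those labelled knockout, mostly ESAM and ENG, with TIE1 at 0. Haematopoietic markers, all 8 listed, summed to 34.5 to 38.1 against 54.7 to 58.9 CPM, with CD3E and CD4 at 0, beside the values of CELF2. Fibroblast markers, all 10 listed, summed to 72.3 to 76.8 against 107 to 115 CPM. Among them COL5A2 went from 47.8 to 81.0 and COL1A1 from 3.4 to 12.7, while FBN1 went from 22.3 to 16.6. Of 15 epithelial and lung markers 14 were listed, summing to 2877 to 3050.2 against 4763 to 4866 CPM. The keratin genes KRT8 and KRT18 were high in both groups and made up most of these sums. CLDN4 went the other way, from 1.46 to 0.646 CPM, as did AGER, from 2.04 to 1.43. EPCAM, KRT19 and NKX2-1 had means under 1 CPM in both groups. The surfactant genes SFTPA1 and SFTPB were at 0 in every library.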

How the data were processed

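Per the labels' protocols, TRIzol-extracted total RNA went into an mRNA library kit, in 6 libraries. GRCh38, HISAT2 2.2.1.0, Trimmomatic 0.36 and FastQC 0.11.5 are named in the submitters' processing notes. Counter, annotation and strand setting were not given in the sources used here. The authors deposited whole-number counts per gene symbol, not normalized, and FPKM, counts scaled to gene length and library total. Of 16779 symbols, 16495 matched the RefSeq gene table (GRCh38.p14) by symbol and 226 by synonym. 751 genes had no count in any library.

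Counts were fitted in R 4.3.3 with edgeR 4.0.16 (filterByExpr, trimmed mean of M values, glmQLFit robust, glmQLFTest, two-sided), with Benjamini-Hochberg adjustment over 12929 genes and a threshold of 0.05. CPM use the same scaling. The SE of an edgeR difference is its size over the square root of the test's F value. This SE can be too small where a group has few counts. Totals of 16018260 to 19357144 counts set the precision, and exact 95% intervals cover counting error only. A chi-square of each pair of libraries in a group, over its degrees of freedom, was 1.74 to 7.84, more than sampling noise. The method was also run on simulated counts in which few genes differed. In these libraries most tested genes passed, so that run does not test the method for this setting. FPKM were compared as log2(FPKM + 0.1) and log2(FPKM + 1) with limma 3.58.1. Gene lengths were computed from count, FPKM and the library total that makes lengths whole. Neighbours are the 10 tested genes on each side.

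The members and lists were chosen with earlier results of these data known. Named genes are all members, the listed paralogs and, with a mean of at least 5 CPM in a group, the smallest edgeR p-values of each list (5 of the other regulators, 3 of each other list). TIA1, HNRNPH1, MSI1, A1CF, RBM11 and the neighbours were named after their values were seen. Promoter windows were listed for 8 members, and proteins were not compared. Alternatives were other scalings, filters, thresholds and tools (DESeq2 1.42.0), gene lengths as an offset, a replicate block and leaving out each library.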

Additional observations from a re-analysis of the deposited data

How the results depend on the processing

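Past the threshold were 10992 of all 12929 tested genes, 24 of 30 other regulators, 15 of 18 partners and kinases and 38 of 42 targets. These counts stayed within 1.5 times under 17 of 18 alternatives. When edgeR's glmTreat asked for a log2 fold change of over 1, 3558 of all 12929 genes passed (2105 higher, 1453 lower). Of the lists, 12 of 30 regulators (8 higher, 4 lower) and 3 of 18 partners (3 higher, 0 lower) passed. Of the targets 10 of 42 did (4 higher, 6 lower). Genes such as CELF6, RBFOX3, MSI1, A1CF, RBM11 and DMD, which passed the low-count filter through 1 group only, are not set apart here. Nothing is read from these list counts. Leaving out 1 library at a time gave 10697 to 11132, 24 to 26, 15 to 15 and 35 to 40 genes. Same-numbered libraries did not deviate together (correlations of 0.018, -0.0248 and -0.00775), and a replicate block gave 10910, 24, 15 and 38 genes. QKI took the other direction at 0.72 on log2(FPKM + 0.1), 0.62 on log2(FPKM + 1) and 0.65 with the length offset. The median of the neighbours reversed for MBNL2 with 5 genes a side (-0.36), for MBNL3 with 5 (-0.22) and 20 (-0.1), and for QKI with 5 (0.37). The causes were not tested. Upper quartile scaling moved the median of all genes from -0.007 to 0.08. Depth limits CELF4, MBNL3 and the libraries labelled knockout for CELF2, where a few counts set the value.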
